A study of Mus musculus with 4 samples.

Results

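The 54 genes described here encode the fixed machinery of the Golgi apparatus and of the traffic between it and the endoplasmic reticulum (ER), in B16 cells, a mouse melanoma line. They were chosen by symbol from lists of known function, and split into 19 golgins and other matrix or Golgi membrane proteins, 8 subunits of the conserved oligomeric Golgi (COG) complex, 18 genes of the COPI coat and its ARF machinery, 3 KDEL receptors and 6 SNAREs. All 54 matched 1 row each of the 53465 gene rows of the count table, and all 54 passed the filter on low counts. Poly(A) RNA was sequenced from B16 cells given EM-plasma for 4 h and from Control cells, with 2 libraries in each group. The labels describe EM-plasma as plasma that had been treated with exosome-mimetic nanovesicles, and they name no genotype, transgene or further agent for either group. The series' design text sets them against cells without EM-plasma; the labels say neither whether the plasma is a gas or a blood fraction nor whether Control cells had a mock treatment or when they were collected. Nothing in the labels says that the 2 libraries of a group came from separate cultures, so the spread behind each p-value is that between these libraries and may be technical. The series title sets the comparison in work on Golgi stress and ferroptosis.

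Cargo leaves the ER for the Golgi and is sorted through the cis, medial and trans cisternae. Golgins are long coiled-coil proteins that reach out from the cisternae and catch vesicles, the COG complex tethers vesicles that return between cisternae, and the COPI coat buds those vesicles once ARF GTPases have been loaded with GTP. KDEL receptors send escaped ER chaperones back, and SNAREs drive the fusion of a vesicle with its target. When the load exceeds this capacity, cells can start a Golgi stress response, in which the transcription factor TFE3 binds a short promoter element called GASE (Golgi apparatus stress response element).

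Depth was even across the series: libraries held 46295133 to 49367932 reads, and a gene of this group had between 650 and 28136 reads in a library. The Control pair differed more between its libraries than the EM-plasma pair did, with a Pearson chi-square of the read counts of 3.01 per tested gene between the EM-plasma libraries and 8.03 between the Control libraries. Melanocyte lineage markers were abundant, with a summed level of 11128 to 11329 CPM (reads of a gene relative to its library's scaled total) in EM-plasma and 10988 to 11065 CPM in Control libraries. The leukocyte markers summed to 1.5 to 1.74 CPM in EM-plasma and 0.865 to 1.42 CPM in Control libraries, nearly all of it Cd68, while Ptprc, Adgre1 and Itgam had 0 reads in every library and Cd3e at most 1. The 6 fibroblast markers summed to 29.3 to 30.4 CPM in EM-plasma and 27.6 to 29.3 CPM in Control libraries, most of it Col1a2. Col1a1 was at 4.27 and 3.39 CPM in EM-plasma and 2.56 and 2.62 CPM in Control libraries. Pdgfra was at 1.74 and 2.11 against 1.71 and 1.96 CPM, while Col3a1, Dcn and Lum had 0 or 1 read in each library. The 4 endothelial and 4 epithelial markers summed to at most 0.129 and 1.80 CPM in EM-plasma libraries and 0.169 and 1.48 CPM in Control libraries, and the 4 blood markers to 0 and 0.0211 CPM at most. Of the 31 markers 12 passed the filter and 0 were called, with 3 at an unadjusted p below 0.05 (Col1a1, Tyr and Mitf) by edgeR's quasi-likelihood test; DESeq2 and limma-voom also called 0, and other settings called up to 3.

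The GASE letters, ACGTGGC on either strand, were searched in RefSeq promoters of GRCm38.p6 (250 bases before to 50 after a gene's start), which held 48 of the 54 genes. The letters occurred in 9 of the 48 (18.8%), against 798 of all 27025 genes with an entry (2.95%) and 462 of the 9786 tested genes with an entry (4.72%). The 9 genes were Arf1, Arf5, Cog3, Copg1, Copz2, Golga3, Kdelr3, Stx5a and Uso1. Uso1 and Stx5a are shown because each holds 2 copies, Kdelr3 and Copg1 as a receptor and a coat gene with 1 copy, and Cog5 because its transcript is the only one of the 54 called changed. Their windows are chr5:92137688-92137987 (plus strand) for Uso1, chr19:8741174-8741473 (plus) for Stx5a, chr15:79516158-79516457 (plus) for Kdelr3, chr6:87887690-87887989 (plus) for Copg1 and chr12:31654619-31654918 (plus) for Cog5. Each is written 5′ to 3′ with the GASE letters, or their reverse complement, in capitals.
Uso1: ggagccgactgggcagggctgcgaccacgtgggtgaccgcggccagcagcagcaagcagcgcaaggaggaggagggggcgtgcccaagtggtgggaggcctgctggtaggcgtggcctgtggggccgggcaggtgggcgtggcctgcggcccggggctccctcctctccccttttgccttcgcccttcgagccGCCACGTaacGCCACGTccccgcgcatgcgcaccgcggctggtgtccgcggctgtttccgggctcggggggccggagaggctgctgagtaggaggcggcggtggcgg
Stx5a: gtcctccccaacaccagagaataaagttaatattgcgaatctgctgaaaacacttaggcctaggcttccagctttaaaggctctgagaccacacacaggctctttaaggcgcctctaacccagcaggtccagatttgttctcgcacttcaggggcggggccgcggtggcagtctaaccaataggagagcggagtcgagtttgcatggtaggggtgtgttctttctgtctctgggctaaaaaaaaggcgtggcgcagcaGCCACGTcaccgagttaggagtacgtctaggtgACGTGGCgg
Kdelr3: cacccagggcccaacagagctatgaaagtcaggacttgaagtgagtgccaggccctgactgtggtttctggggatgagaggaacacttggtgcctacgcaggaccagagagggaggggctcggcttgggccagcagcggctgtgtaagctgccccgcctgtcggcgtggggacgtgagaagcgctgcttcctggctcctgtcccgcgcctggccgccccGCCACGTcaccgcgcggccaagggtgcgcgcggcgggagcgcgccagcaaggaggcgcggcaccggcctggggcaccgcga
Copg1: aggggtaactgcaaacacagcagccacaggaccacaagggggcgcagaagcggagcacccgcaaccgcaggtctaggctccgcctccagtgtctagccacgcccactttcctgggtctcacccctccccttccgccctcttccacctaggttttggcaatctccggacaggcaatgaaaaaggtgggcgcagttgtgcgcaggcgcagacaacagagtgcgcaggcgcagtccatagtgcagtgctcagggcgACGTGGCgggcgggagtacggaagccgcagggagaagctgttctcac
Cog5: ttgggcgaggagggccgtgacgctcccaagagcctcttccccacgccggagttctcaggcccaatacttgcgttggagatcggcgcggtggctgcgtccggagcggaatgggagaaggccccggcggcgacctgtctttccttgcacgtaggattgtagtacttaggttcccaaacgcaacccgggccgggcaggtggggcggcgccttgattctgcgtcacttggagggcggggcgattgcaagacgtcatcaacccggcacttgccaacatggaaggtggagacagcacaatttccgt
Counting from 1 at the 5′ end, the copies lie at bases 194 and 204 in Uso1, 259 and 292 in Stx5a, 220 in Kdelr3 and 254 in Copg1, and the Cog5 window holds none.

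Of the 9 genes with these letters 0 were called changed by edgeR's quasi-likelihood test, and 1 had an unadjusted p below 0.05 (Copz2). DESeq2 and limma-voom also called 0. Beside these, 6.21% of all tested genes were called and 19.5% had such an unadjusted p, so 0 of 9 does not set these genes apart. The log2 fold changes of the 9, EM-plasma over Control, ran from -0.16 in Copz2 to 0.07 in Cog3, with 5 above 0. Other letters searched on both strands were TGACGTGG, the core of the unfolded protein response element, TGACGTCA, the cAMP response element, and CACGTG, the E-box read by TFE3 and MITF. TGACGTGG shares its last 6 letters with the start of the GASE letters, and was found in 6 of 48 genes (12.5%, against 1.04% of tested genes with an entry): Arf1, Copb1, Copb2, Gbf1, Kdelr3 and Stx5a. TGACGTCA was found in 3 of 48 (6.25%, against 3.63%), and CACGTG in 6 of 48 (12.5%, against 12%). Of the genes with any of these 4 motifs 0 were called by edgeR in the fit as reported, and DESeq2 and limma-voom called 0. In that fit 2 had an unadjusted p below 0.05 (Copz2, and Arfgef2 with CACGTG). Some other edgeR settings called Arfgef2, Golim4 or Arf5. Across the genes with a motif the log2 fold changes ran from -0.16 in Copz2 to 0.15 in Arfgef2. A match shows only that the letters are in the window.

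The Golgi machinery transcripts were close to their Control level after 4 h with EM-plasma: 1 of 54 fell, Cog5, and 0 rose, at an adjusted p below 0.05 (edgeR's quasi-likelihood test, Benjamini-Hochberg adjustment over all tested genes). DESeq2 and limma-voom also called Cog5 lower and 0 genes of the group higher. Over all 13664 tested genes 6.21% were called, 3.34% higher and 2.88% lower. At an unadjusted p below 0.05 there were 8 of the 54 (14.8%), 3 higher and 5 lower, against 19.5% of all tested genes. The median log2 fold change of the 54 was -0.0021, beside -0.0027 over all tested genes, and 26 were above 0 and 28 below.

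The sizes of the differences were bounded closely at this depth. The 95% interval of the fold change lay within 1.5-fold in either direction for 54 of 54 genes and within 1.2-fold for 49 of 54 (90.7%), and the 54 intervals together spanned -0.35 to 0.29 on the log2 scale. Over all tested genes 75.3% of the intervals lay within 1.5-fold and 52.8% within 1.2-fold. Many of those genes had fewer reads: of the 8533 tested genes whose mean was at least 15.0 CPM, the lowest mean in the group, 81.6% had an interval within 1.2-fold. The median absolute log2 fold change was 0.050 in the group, 0.063 in those 8533 genes and 0.090 in all tested genes. In 27 of the 54 genes the EM-plasma libraries lay both above or both below the Control libraries, 18 above and 9 below. Groups did not overlap in 49.1% of all 13664 tested genes, 3322 above and 3386 below. The difference in direction was not tested.

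**Figure D1:**
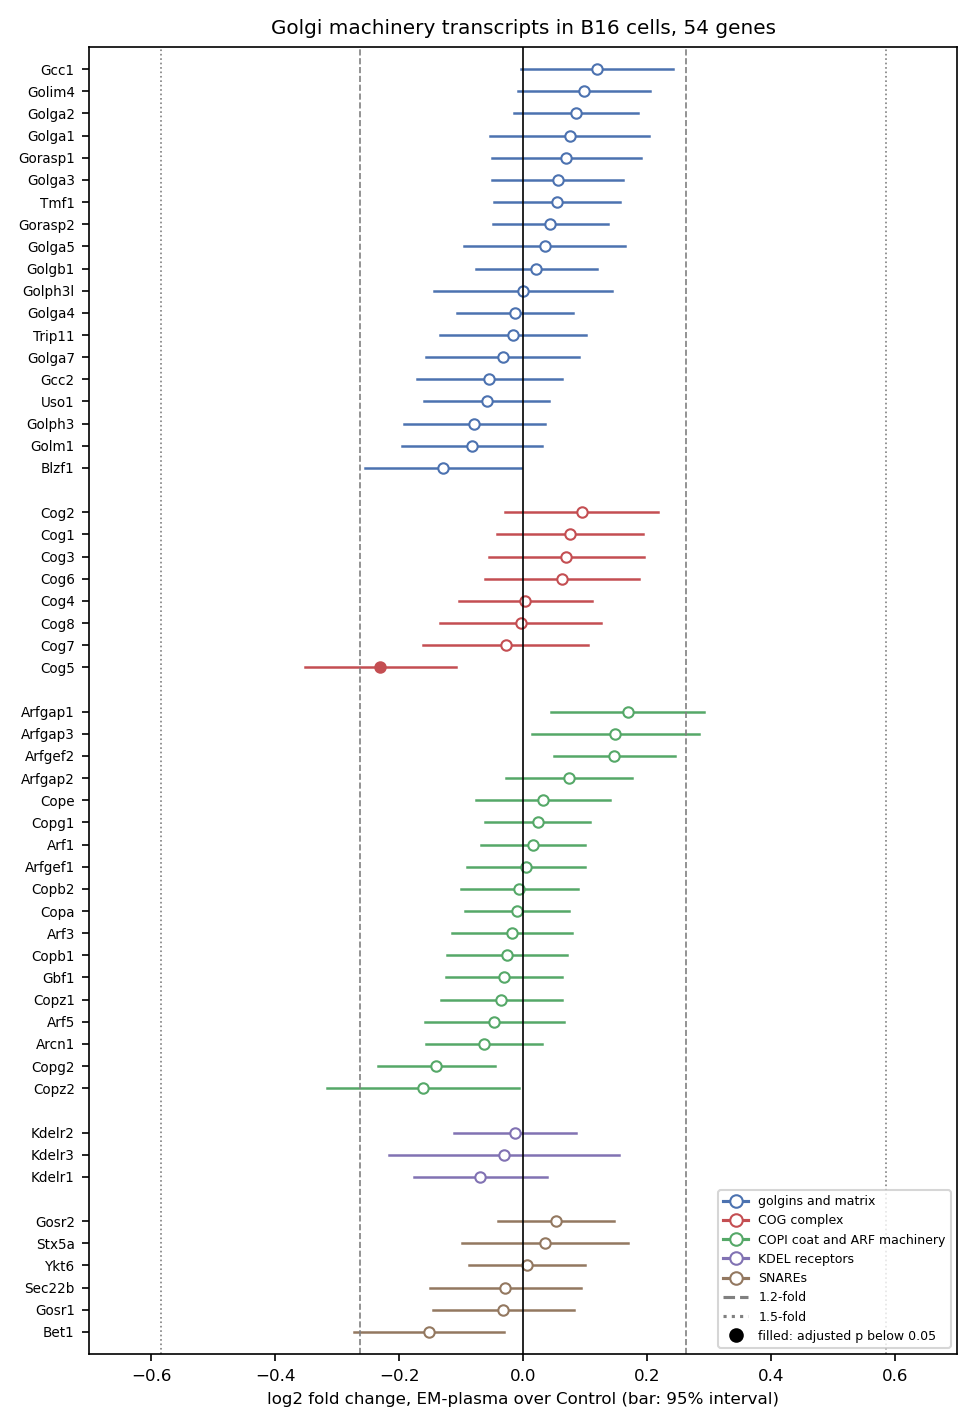
Log2 fold change of EM-plasma over Control for the 54 genes (x axis) with its 95% interval as a bar, in rows sorted within each role; dashed and dotted lines mark 1.2-fold and 1.5-fold, and a filled point an adjusted p below 0.05. All 54 bars lie within the 1.5-fold lines, and Cog5 is the only filled point.

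Among the golgins and matrix genes 0 of 19 were called in either direction, with 1 at an unadjusted p below 0.05. Of all tested genes 6.21% were called and 19.5% had such an unadjusted p. The median log2 fold change of the 19 was 0.021, with a range of -0.13 to 0.12. All 19 intervals lay within 1.2-fold. Blzf1 encodes golgin-45, which binds the stacking protein GRASP55. It was at 45.9 and 43.9 CPM in EM-plasma and 48.4 and 49.9 CPM in Control libraries, both treated libraries being lower (log2 fold change -0.13, SE 0.062, adjusted p = 0.239 from edgeR). Gcc1, a trans-Golgi golgin with a GRIP domain, had the highest log2 fold change of this role, at 57.2 and 60.3 CPM in EM-plasma and 54.9 and 53.3 CPM in Control libraries (0.12, SE 0.060, adjusted p = 0.27 from edgeR). Groups did not overlap for either gene, and neither passed the test. Exons of Gcc1 and Arf5 overlap on opposite strands over 313 bases.

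The GRASP stacking genes are Gorasp1 (GRASP65, cis) and Gorasp2 (GRASP55, medial). Gorasp2 was at 216 and 218 CPM in EM-plasma and 213 and 208 CPM in Control libraries, and Gorasp1 at 59.6 and 60.1 against 58.1 and 56.0 CPM. Both had their treated libraries above both Controls, by log2 fold changes of 0.04 and 0.07 that did not pass the test (adjusted p = 0.653 and 0.565 from edgeR). Golph3 reads phosphatidylinositol 4-phosphate at the Golgi and helps retain glycosyltransferases. It was at 99.4 and 102 CPM in EM-plasma and 100.3 and 112 CPM in Control libraries, and its paralogue Golph3l was at 30.5 and 32.8 against 30.3 and 33.0 CPM. Their groups overlapped, with log2 fold changes of -0.08 and 0.00. Without Control 2 the sign of the Golph3 value turned, to 0.0055 (adjusted p = 0.962 from edgeR).

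The other members of this role stayed within the same range. The cis-Golgi tether genes Golga2 (GM130) and Uso1 (p115), whose proteins bind each other, averaged 146 ± 2.91 and 144 ± 4.03 CPM in EM-plasma and 138 ± 3.60 and 150.4 ± 3.95 CPM in Control libraries (SD, n = 2 each), with log2 fold changes of 0.09 and -0.06. The giantin gene Golgb1 had 0.02, Golga3 (golgin-160) 0.06, Golga5 (golgin-84) 0.03, Tmf1 0.05 and Trip11 (GMAP-210) -0.02 as log2 fold changes. Among the other GRIP golgins, Golga1 (golgin-97) had 0.07, Golga4 (golgin-245) -0.01 and Gcc2 (GCC185) -0.05. Golga7, a partner of a palmitoyltransferase, had -0.03, and the cycling membrane proteins Golim4 (GPP130) and Golm1 (GP73) had 0.10 and -0.08. None of these passed the test.

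The COG complex has 2 lobes, Cog1 to Cog4 in lobe A and Cog5 to Cog8 in lobe B. Of its 8 transcripts 1 was called, Cog5, beside 6.21% of all tested genes. Cog5 (ENSMUSG00000035933, chromosome 12, 31654869 to 31937630 on the plus strand, GRCm38) was at 56.9 and 58.6 CPM in EM-plasma and 65.4 and 70.1 CPM in Control libraries. Both EM-plasma libraries lay below both Control libraries, and Cog5 fell 1.17-fold (log2 fold change -0.23, SE 0.059, 95% interval -0.35 to -0.11, adjusted p = 0.0166 from edgeR's quasi-likelihood test). The call ended without Control 2 (log2 fold change -0.18, adjusted p = 0.198), without EM-plasma 1 (-0.21, adjusted p = 0.411) or without EM-plasma 2 (-0.25, adjusted p = 0.223), and with no filter on low counts (-0.23, adjusted p = 0.262), all from edgeR. Over the 14 alternative settings the log2 fold change of Cog5 stayed between -0.28 and -0.18.

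Exons of Cog5 overlap those of Hbp1, a transcriptional repressor gene on the opposite strand, over 1514 bases. The library kit marks strand, but the strand setting of the counting is not given in the sources used here. Hbp1 had 1940 and 1972 reads in EM-plasma and 2246 and 2169 reads in Control libraries, with a log2 fold change of -0.12 (adjusted p = 0.278 from edgeR). Its part in the Cog5 result was not tested.

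The other COG transcripts did not pass the test, and the lobe B genes Cog7 and Cog8 and the lobe A gene Cog4 had groups that overlapped. Cog4, the most abundant per kb, was at 93.6 and 94.4 CPM in EM-plasma and 94.6 and 93.0 CPM in Control libraries. Cog1 was at 75.3 and 70.6 CPM in EM-plasma and 70.3 and 68.1 CPM in Control libraries, and Cog2 at 60.1 and 61.9 against 59.3 and 54.9 CPM. Both Cog1 and Cog2 had their treated libraries above both Controls, by log2 fold changes of 0.08 and 0.09 (adjusted p = 0.516 and 0.418 from edgeR), as did Cog3 with 0.07 and Cog6 with 0.06. Lobe A summed to 280 and 277 CPM in EM-plasma and 271 and 265 CPM in Control libraries, and lobe B to 192 and 191 CPM in EM-plasma and 199 and 201 CPM in Control libraries. The sums of lobe A were higher and those of lobe B lower in both EM-plasma libraries, and the difference between the lobes was not tested. Without Cog5, lobe B summed to 135 and 132 CPM in EM-plasma and 133 and 131 CPM in Control libraries, which overlapped.

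**Figure D2:**
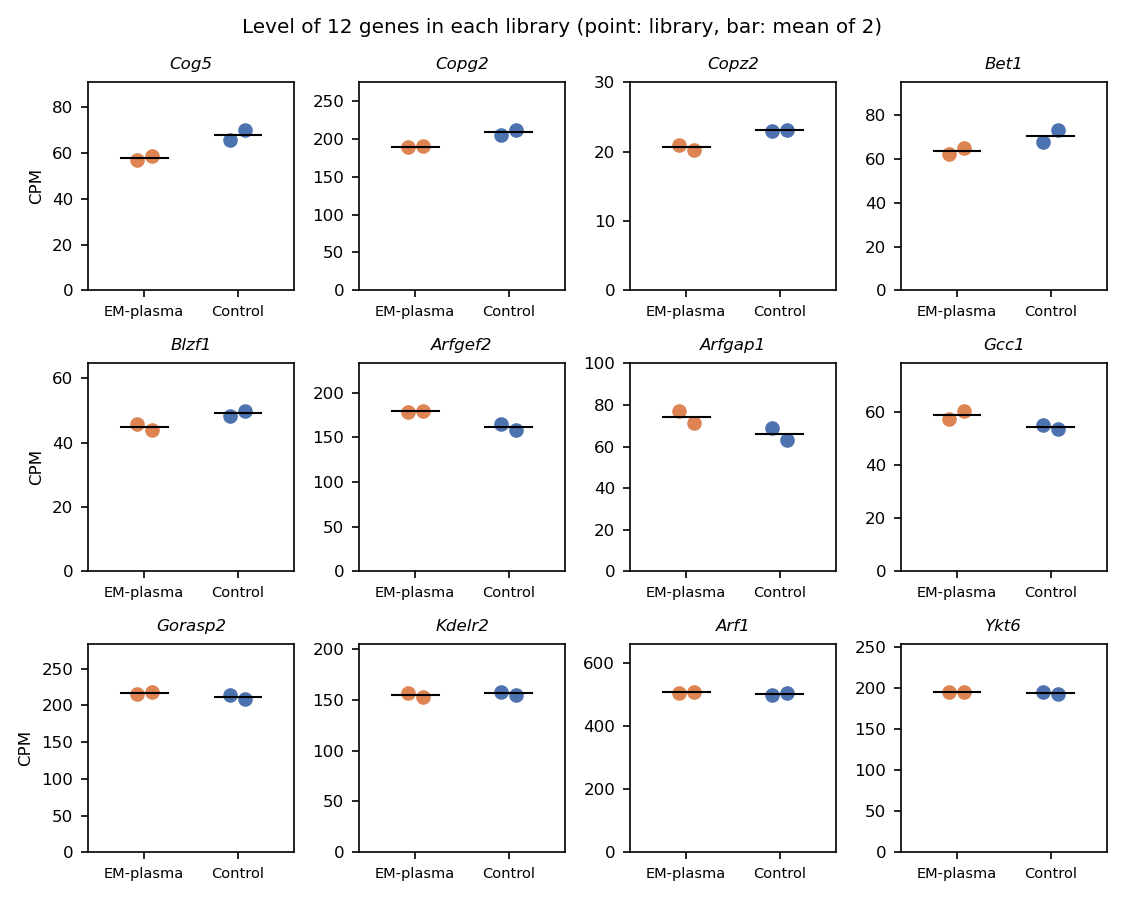
Level in CPM (y axis, from 0) of 12 genes in each EM-plasma and Control library, with the mean of the 2 libraries as a bar. Cog5, at 56.9 and 58.6 against 65.4 and 70.1 CPM, is the only 1 of the 12 called changed, and the points of Ykt6 and Kdelr2 overlap between groups.

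The COPI coat is built from 7 kinds of subunit, and 0 of its 9 genes were called. At an unadjusted p below 0.05 there were 2 of the 9, against 19.5% of all tested genes: Copg2 and Copz2, both with negative values. Both are the less abundant paralogue of a subunit that B16 cells made from 2 genes. Copg2 (gamma-2) was at 189 and 189.7 CPM in EM-plasma and 205 and 212 CPM in Control libraries, with both treated libraries lower (log2 fold change -0.14, SE 0.046, adjusted p = 0.0661 from edgeR). Copz2 (zeta-2) was at 20.96 and 20.3 CPM in EM-plasma and 23.0 and 23.2 CPM in Control libraries, again both lower (-0.16, SE 0.075, adjusted p = 0.228 from edgeR). Their paralogues held closer to the Control level: Copg1 was at 577 and 563 CPM in EM-plasma against 572 and 549.9 CPM in Control libraries, with groups that overlapped. Copz1 was at 153.1 and 153 CPM in EM-plasma and 159 and 155 CPM in Control libraries, also with both treated libraries lower (log2 fold change -0.04, adjusted p = 0.749 from edgeR). The differences between paralogues were not tested. Exons of Copg2 overlap those of its imprinted neighbour Mest on the opposite strand over 912 bases. Mest had a log2 fold change of 0.18 (adjusted p = 0.0837 from edgeR). Its part in the Copg2 result was not tested.

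As a share of the summed level per kb of exon, Copg2 made 41.3% and 42.0% of the gamma transcripts in EM-plasma libraries and 43.6% and 45.3% in Control libraries. Copz2 made 18.5% and 18.0% of the zeta transcripts in EM-plasma libraries and 19.3% and 19.9% in Control libraries. Both shares were lower in both treated libraries, by a few percentage points at most. Such a separation was not particular to the coat genes. Arfgef2 made 42.2% and 41.5% of its pair in EM-plasma and 41.0% and 38.0% in Control libraries. Golph3l made 26.0% and 27.0% of its pair in EM-plasma and 25.7% and 25.2% in Control libraries. Groups also did not overlap for the shares of Gorasp1 and Kdelr1, and overlapped for those of Arf1 and Gosr1. With the longest transcript as the length the Copg2 share was 30.7% and 31.3% in EM-plasma and 32.7% and 34.2% in Control libraries, so the level of the share depends on the length used. The differences in share were not tested, and with 2 libraries a group an exact two-sided permutation test cannot go below p = 0.333.

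Of the remaining coat genes, Copa (alpha), at 475 ± 2.44 CPM in EM-plasma and 478 ± 5.88 CPM in Control libraries (SD, n = 2 each), had a log2 fold change of -0.01 with a 95% interval of -0.09 to 0.07. Copb1 (beta), Copb2 (beta-prime), Arcn1 (delta) and Cope (epsilon) had log2 fold changes of -0.03, -0.01, -0.06 and 0.03. Together 7 of the 9 coat genes were below 0, with a median of -0.03, where 6952 of all 13664 tested genes were below 0. The summed coat level was 2265 and 2267 CPM in EM-plasma and 2292 and 2310 CPM in Control libraries. Per kb of exon, averaged over the 4 libraries, the coat levels ran from 9.90 CPM in Copz2 and 20.1 in Arcn1 to 50.6 in Copa and 51.3 in Copg1. Arcn1 stood at 73.6 CPM per kb with its longest transcript as the length, which moved it up among the 9, so the order of the subunits was not settled by these lengths.

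**Figure D3:**
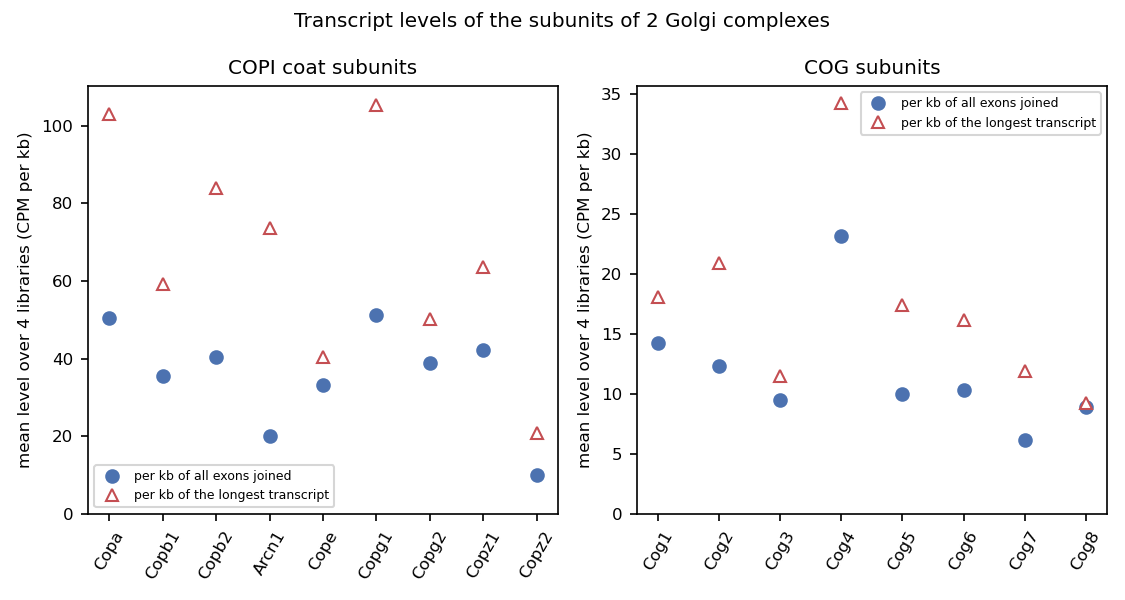
Mean level over the 4 libraries in CPM per kb (y axis, from 0) of the 9 COPI coat genes and the 8 COG genes (x axis), by the joined length of all annotated exons (filled circles) and by the longest transcript (open triangles). Copg1 and Copa lead the coat genes and Cog4 leads the COG genes on both scales, while Arcn1 stands at 20.1 CPM per kb by the first and 73.6 by the other.

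ARF GTPases recruit COPI and are switched on by the exchange factors GBF1, BIG1 and BIG2 and off by ArfGAPs. Of these 9 genes 0 were called, with 3 at an unadjusted p below 0.05, all with positive values: Arfgef2, Arfgap1 and Arfgap3, the last 2 being ArfGAP genes. The 18 coat and ARF genes of this role together had 5 at such a p (27.8%), 3 higher and 2 lower, against 19.5% of all tested genes. The difference between coat and ARF genes was not tested. Arfgef2, the gene of BIG2, was at 179 and 180 CPM in EM-plasma and 165 and 159 CPM in Control libraries, with both treated libraries higher. Its log2 fold change was 0.15 (SE 0.047, 95% interval 0.05 to 0.24, adjusted p = 0.0599 from edgeR), close to the threshold. In edgeR it passed under upper-quartile scaling (adjusted p = 0.0421), a stricter filter on low counts (0.0450) and the fits with a GC trend removed or a replicate block. In edgeR it did not pass with no filter on low counts (0.292), RLE size factors (0.0531) or the newer edgeR fit (0.0586). Nor did it pass with DESeq2 (0.0718) or limma-voom (0.0620). With 1 library left out its log2 fold change ran from 0.12 to 0.17. Arfgef1, the gene of BIG1, was at 316 and 328 CPM in EM-plasma and 307 and 335 CPM in Control libraries, so its groups overlapped (log2 fold change 0.01, adjusted p = 0.969 from edgeR). The difference between Arfgef2 and Arfgef1 was not tested.

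Arfgap1, whose protein senses membrane curvature on COPI vesicles, was at 77.3 and 71.4 CPM in EM-plasma and 68.9 and 63.4 CPM in Control libraries. Its log2 fold change of 0.17 was the highest of the 54 genes (SE 0.060, 95% interval 0.05 to 0.29, adjusted p = 0.0959 from edgeR). Arfgap2 and Arfgap3 also had both treated libraries above both Controls, with log2 fold changes of 0.07 and 0.15, and did not pass the test (adjusted p = 0.445 and 0.196 from edgeR). Gbf1, the exchange factor of the cis-Golgi, averaged 244 ± 8.55 CPM in EM-plasma and 249.7 ± 6.44 CPM in Control libraries (SD, n = 2 each), with a log2 fold change of -0.03.

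Of the GTPases, Arf1 was the most abundant of the 54 genes per kb, with a mean of 241 CPM per kb of exon. Arf1 was at 504 and 508 CPM in EM-plasma and 498 and 503 CPM in Control libraries, a log2 fold change of 0.02 with a 95% interval of -0.07 to 0.10. Arf3 was at 254 and 245 CPM in EM-plasma and 262 and 243 CPM in Control libraries, and Arf5 at 113 and 116 against 125 and 112 CPM. The groups of both overlapped, and both values changed sign without Control 1, where they were 0.04 and 0.03 (adjusted p = 0.565 and 0.627 from edgeR). Arf1 made 68.3% and 68.6% of the summed ARF level per kb in EM-plasma libraries and 66.5% and 68.9% in Control libraries, shares that overlapped between groups.

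**Figure D4:**
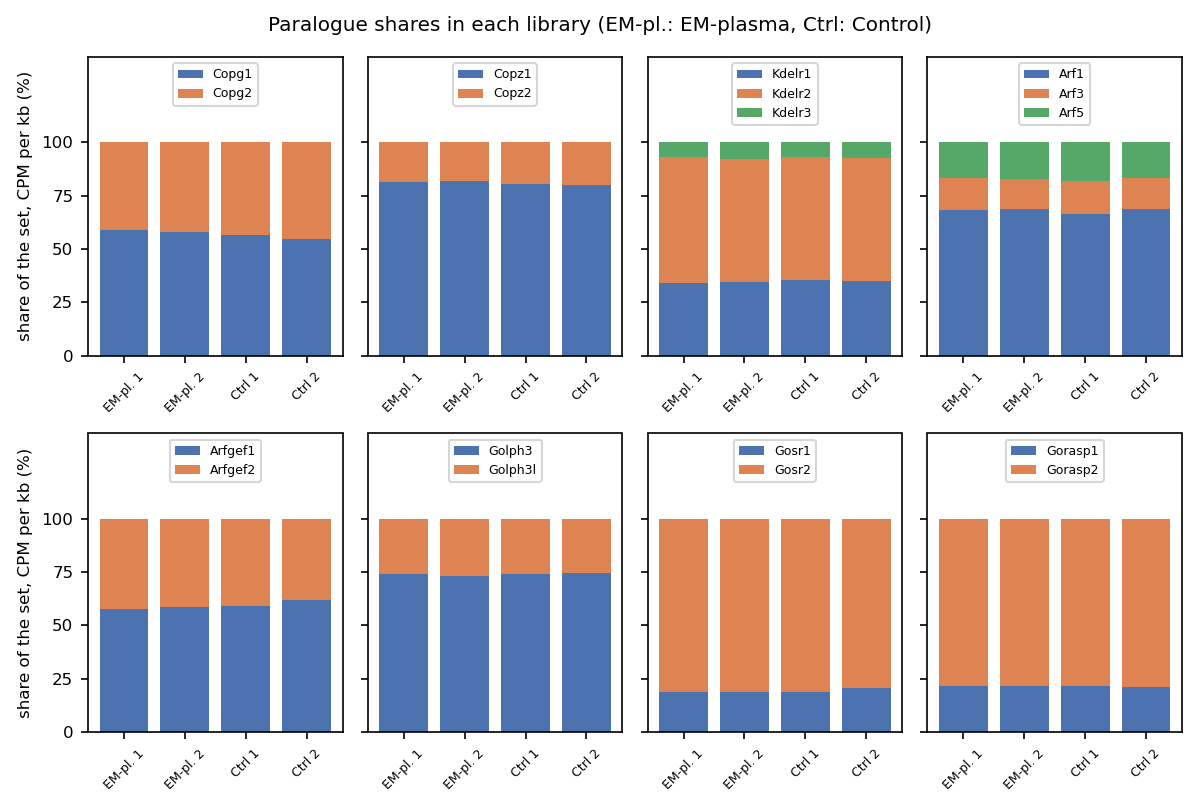
Share of each paralogue in the summed level per kb of exon of its set (y axis, percent) in each EM-plasma and Control library (x axis), for 8 sets. Copg2 lies between 41.3% and 42.0% in EM-plasma and 43.6% and 45.3% in Control libraries, and the Arf1 share spans 66.5% to 68.9% with overlapping groups.

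The KDEL receptors had 0 of 3 genes called and 0 at an unadjusted p below 0.05, beside 6.21% and 19.5% of all tested genes. All 3 intervals lay within 1.2-fold. Kdelr2 was at 157 and 153 CPM in EM-plasma and 158 and 154 CPM in Control libraries, which overlapped (log2 fold change -0.01, 95% interval -0.11 to 0.09). Kdelr1 was at 92.6 and 93.7 CPM in EM-plasma and 98.7 and 96.7 CPM in Control libraries, with both treated libraries lower (-0.07, SE 0.052, adjusted p = 0.512 from edgeR). Kdelr3, the lowest of the 54 genes in CPM though not per kb, was at 13.9 and 15.7 CPM in EM-plasma and 14.9 and 15.4 CPM in Control libraries and had the widest interval of the 3, -0.22 to 0.16. Per kb, Kdelr2 made 59.1% and 57.8% of the receptor transcripts in EM-plasma and 57.7% and 57.4% in Control libraries, and Kdelr3 6.82% and 7.68% in EM-plasma and 7.06% and 7.42% in Control libraries.

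The SNAREs of the ER-Golgi and intra-Golgi steps had 0 of 6 genes called, with 1 at an unadjusted p below 0.05, Bet1. Of all tested genes 6.21% were called and 19.5% had such an unadjusted p. Bet1 pairs with syntaxin 5, membrin and SEC22B in fusion at the cis-Golgi. It was at 62.2 and 64.8 CPM in EM-plasma and 67.8 and 73.3 CPM in Control libraries, with both treated libraries lower (log2 fold change -0.15, SE 0.059, adjusted p = 0.133 from edgeR). Its partners had log2 fold changes of 0.04 in Stx5a (syntaxin 5), 0.05 in Gosr2 (membrin) and -0.03 in Sec22b. Gosr2 and Ykt6 were the most abundant SNARE genes per kb, at 74.3 and 65.4 CPM per kb of joined exons and 74.3 and 76.8 CPM per kb of longest transcript, so their order depends on the length used. Gosr2 was at 245 and 249 CPM in EM-plasma and 245 and 232 CPM in Control libraries (adjusted p = 0.57 from edgeR). The intra-Golgi SNARE genes Gosr1 (GS28) and Ykt6 were at 74.9 and 74.5 CPM and at 195.8 and 195 CPM in EM-plasma libraries, and at 74.5 and 78.2 CPM and at 196 and 193 CPM in Control libraries. Both of these had groups that overlapped.

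The 7 lists of genes of neighbouring steps held 101 tested genes, of which 2 fell and 0 rose, beside 6.21% called over all tested genes. At an unadjusted p below 0.05 there were 19 (18.8%), 8 higher and 11 lower, close to the 19.5% over all tested genes. DESeq2 called 1 of the 101 lower and limma-voom 2, and each called 0 higher. Both called genes belong to the 23 trans-Golgi adaptors and tethers. Ap1s2, a small subunit of the clathrin adaptor AP-1, was at 36.3 and 40.4 CPM in EM-plasma and 43.7 and 52.8 CPM in Control libraries (log2 fold change -0.33, SE 0.075, adjusted p = 0.00655 from edgeR). Vamp4, a SNARE of the trans-Golgi network, was at 18.8 and 21.3 CPM in EM-plasma and 22.9 and 27.8 CPM in Control libraries (-0.34, SE 0.087, adjusted p = 0.0160 from edgeR). For both genes the highest library was Control 2, and both calls ended without it (adjusted p = 0.315 and 0.366 from edgeR for Ap1s2 and Vamp4), without EM-plasma 1 (0.255 and 0.371) or with no filter on low counts (0.383 and 0.403). With DESeq2 the adjusted p was 0.0173 for Ap1s2 and 0.0658 for Vamp4.

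The other 6 lists held 0 called genes, beside 6.21% called over all tested genes. At an unadjusted p below 0.05 there were 1 of 17 genes of the COPII coat and ER exit sites, 2 of 16 cargo receptors and 2 of 14 TRAPP tether subunits. There were also 3 of 12 other SNARE genes, 1 of 3 genes of the ER tether NRZ and 4 of 16 other ARF family genes. Of all tested genes 19.5% had such an unadjusted p. The median log2 fold change of the 7 lists lay between -0.05, in the trans-Golgi list, and 0.03, in the COPII list. With bulk RNA, fewer cells with a transcript and less of it per cell cannot be told apart in any of these values.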

How the data were processed

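Poly(A) RNA-seq of 2 EM-plasma and 2 Control libraries of B16 cells was analysed, with groups taken from the sample titles. The table deposited by the authors holds whole-number read counts per Ensembl gene; the authors also deposited a scaled signal per library, which equalled those counts times 1 constant and served only to check columns. The submitters' processing notes name CASAVA, HTSeq, TopHat2 2.1.1 and edgeR, and GRCm38 as the build, without saying what each did.

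Counts were filtered with filterByExpr, scaled by TMM and tested on group alone with edgeR 4.0.16 (quasi-likelihood F test, two-sided, Benjamini-Hochberg adjustment over 13664 genes, called below 0.05). Each standard error was taken as |log2 fold change| divided by √F, and intervals and read depths cover the spread and counting error of these libraries only. CPM use TMM-scaled library totals of tested genes. DESeq2 1.42.0 and limma-voom (limma 3.58.1) were alternatives, and the fit was tested on simulated data. There it called 52.6% of genes changed 1.2-fold, 73.1% of those changed 1.5-fold and 81.1% of those changed 2-fold in the right direction. The changed genes were picked at random over all levels, and 9 of 13267 unchanged genes were called. Lengths, GC content and overlaps come from GENCODE M21 on GRCm38. Reads may be shared between genes that overlap, on either strand, or that have a near-identical copy.

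The members and lists were chosen with earlier results of these data known. Values in every library are given for 27 genes, named by a rule: called members, the 2 most abundant per kb and the highest and lowest log2 fold change of each role, and 8 paralogue sets. Other genes named with values were chosen after their values were seen. Of the names on the neighbouring lists, Stx10 matched no row. A marker on the leukocyte list is not reported here.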

Additional observations from a re-analysis of the deposited data

How the results depend on the processing

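Over 14 alternative settings, 28 of the 54 genes kept the sign of their log2 fold change in every one. The count of all tested genes called, 849 as reported, was 539 with DESeq2, 14 with no filter on low counts, 1683 with the replicate block, 1678 with a GC trend removed, 2477 with both, and 71 to 547 with 1 library left out, fewest without Control 2. Golgi machinery genes called higher, 0 as reported, numbered 1 under upper-quartile scaling and under the stricter filter (Arfgef2), 2 with the replicate block (with Arfgap1), and 4 with a GC trend removed, with or without the block (with Tmf1 and Golim4 added), and 0 to 0 with 1 library left out. Those called lower, 1 as reported, numbered 0 with no filter, 3 with the replicate block (Copg2 and Bet1 added), 2 with a GC trend removed (Copg2 added), 3 with both (Arf5 and Copg2 added), and 0 to 1 with 1 library left out. The cause of these moves was not tested. Both fits with the replicate block tested each gene on 13664 degrees of freedom, against 27.5 in the fit as reported. The fits without EM-plasma 1 and without EM-plasma 2 had 14081 and 14097. Those without Control 1 and without Control 2 had 5.71 and 5.27, and the fit with no filter had 5.36. Counts of called genes in the block fits and in those without an EM-plasma library so rest on a spread pooled over all genes. A call that ended with a library left out or with no filter met a test unlike that of the fit as reported. Of the 31 markers, 0 called as reported, Tyr was called under the stricter filter, Col1a1 and Tyr with the replicate block, Tyrp1 with a GC trend removed, and all 3 with both. The median log2 fold change of the 54 was 0.0077 under upper-quartile scaling, 0.0081 and 0.0082 with a GC trend removed without and with the block, and -0.00066 to 0.017 with 1 library left out. Of the 101 genes on the neighbouring lists, 0 called higher and 2 lower as reported, 0 and 0 were called with no filter, 3 and 8 with the replicate block, 2 and 8 with a GC trend removed, and 7 and 15 with both. Among the 27 genes named by the rule the sign turned for 12, none of them called in the fit as reported. Golph3l (-4.1e-05 as reported) had log2 fold changes of 0.0018 with RLE size factors, 0.0098 with upper-quartile scaling, 7.2e-04 with limma-voom, 2.4e-04 with the newer edgeR fit, 0.0056 with the stricter filter, and 0.043 and 0.042 with a GC trend removed without and with the block. Cog4 had -2.1e-04 with DESeq2. With a GC trend removed, without and with the block, Cog4 had -0.010 and -0.010, Arf1 -0.0050 and -0.0047, Kdelr2 0.0011 and 0.0013, and Ykt6 -0.012 and -0.012. With 1 library left out the log2 fold change ran from -0.16 to 0.0055 in Golph3, -0.064 to 0.065 in Golph3l, -0.0063 to 0.012 in Cog4, -0.0015 to 0.047 in Copg1, -0.070 to 0.035 in Arf3, -0.12 to 0.033 in Arf5, -0.061 to 0.073 in Arfgef1, -0.031 to 0.0029 in Kdelr2, -0.12 to 0.051 in Kdelr3, -6.0e-04 to 0.012 in Ykt6 and -0.070 to 0.0056 in Gosr1. No label says that replicate numbers pair the libraries. Deviations from the group means of same-numbered libraries correlated at 0.27 over 9195 genes. With 2 libraries a group these deviations mirror each other and the sign of the value follows the numbering, so it cannot show pairing.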

Other observations

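Across the 54 Golgi machinery genes the log2 fold change had a Spearman correlation of 0.37 with the GC content of the longest transcript. Over 13647 tested genes with a GC value it was 0.221. The Pearson correlations were 0.402 in the 54 and 0.0891 in the 13647. Genes of these libraries share depth and are not independent. Bet1, with 36.6% GC the lowest of the 54, had a log2 fold change of -0.15 that moved to -0.08 with the GC trend removed. Cog5, at 41.3% GC, moved from -0.23 to -0.18. Other genes moved away from 0: Tmf1 (39.7% GC) from 0.05 to 0.11, Golim4 (44.9%) from 0.10 to 0.13 and Arf5 (59.9%) from -0.05 to -0.10. Arfgap1 had 53.6% GC and Arfgef2 50.3%. The part of base composition in these values was not tested.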
